A study of Mus musculus with 45 samples.

Results

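The genes described here encode the matrix metalloproteinases (Mmp), the ADAMTS proteases (Adamts), the ADAMTS-like proteins (Adamtsl) and the tissue inhibitors of metalloproteinases (Timp) in cultured mouse forelimb buds. The families were chosen with earlier results of these data known. Within them, every protein-coding gene whose symbol reads Mmp, Adamts or Adamtsl with a number, or Timp1 to Timp4, was taken. This gave 47 of the 35272 genes counted, made up of 19 Mmp, 19 Adamts, 5 Adamtsl and 4 Timp genes. Mmp1a also carries such a name but was listed as a polymorphic pseudogene and was left out. All limbs came from CD1 mouse embryos on gestation day 13, and each was grown in a bottle with DMSO, with 1 µM BPAF or with 5 µM BPAF, so that the control limbs had DMSO as well. BPAF is bisphenol AF, a fluorinated relative of the plastics chemical bisphenol A. Cultures were stopped after 3, 24 or 48 h, and poly-A RNA was sequenced from 5 libraries for each of the 9 dose and time groups, 45 libraries in all. Limbs of male and female embryos shared bottles, and the labels do not say whether replicates came from separate litters or days, so the spread behind each p-value is that between these libraries and may be technical.

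Matrix metalloproteinases are zinc proteases that are made as inactive precursors, are switched on by other proteases, and cut collagens, proteoglycans and each other. ADAMTS proteases trim procollagens and cut the proteoglycans aggrecan and versican, ADAMTS-like proteins lack the protease domain and bind fibrillin microfibrils, and TIMPs block the active site of the metalloproteinases. In a limb that ossifies through cartilage, this system remodels the matrix, and MMP13 and MMP9 act where hypertrophic cartilage is replaced by bone.

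Libraries held 14901842 to 25154115 reads, with a median of 17820524. Levels are in CPM, which are read counts scaled to a common library total. Over the control and 5 µM libraries, 6 limb genes (Tbx5, Prrx1, Prrx2, Hoxd9, Hoxd10 and Hoxa10) summed to 877 to 1290 CPM. The 3 hindlimb genes Tbx4, Pitx1 and Hoxc10 summed to 21.5 to 35.7 CPM. The low hindlimb sum goes with the forelimb label, while the 6 limb genes are not all confined to the forelimb and their sum does not test it. Both label doubts concern 1 µM groups. Replicate 5 of 1 µM at 3 h has a characteristic that names 10 uM BPA, against its title and library code, and replicates 1 and 2 of 1 µM at 48 h carry each other's number in title and code. CPM were scaled by the trimmed mean of M-values (TMM) and are given as mean ± SD over 5 libraries. A change is a log2 fold change ± SE from edgeR's quasi-likelihood test, and calls were made where the p adjusted by Benjamini-Hochberg over all genes tested was below 0.05. These are whole limbs, so fewer cells of a type and less RNA per cell cannot be told apart.

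Of the 47 genes, 38 to 41 had enough reads to be tested in a given comparison. Mmp3, Mmp8, Mmp10, Mmp21, Mmp27 and Adamts13 were tested in none, with at most 128 reads each over all 45 libraries, and Mmp24 had 290 reads and was tested in 3. Mmp25, whose highest group mean was 2.22 CPM, Timp3 and Adamts18 were tested throughout and called in no comparison. Mmp12 was tested in 7 comparisons and Mmp13 in 9. In the 24 h comparisons with 5 µM both passed the read minimum only through the 5 µM libraries, as did Mmp12 at 48 h, and Mmp13 passed in the control time course through the 48 h libraries. A gene that passes through its high group alone had to differ to be tested at all.

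Per length of transcript, 3 genes led in control limbs at every time. Mmp2, the gelatinase that cuts denatured collagen, stood at 102 ± 6.5 CPM per kb at 3 h and 171 ± 9.54 at 48 h. Timp2, which takes part in the activation of MMP2 as well as in its inhibition, stood at 71.9 ± 5.82 CPM per kb at 3 h and 146 ± 13.3 at 48 h. Mmp14, the membrane-bound protease that activates MMP2, stood at 59.4 ± 2.17 CPM per kb at 3 h and 99.6 ± 10.3 at 48 h. At 48 h the next ranks were Adamts10, a protease linked to fibrillin, with 42.2 ± 4.06 CPM per kb, Timp1 with 32.4 ± 15.5 and Mmp11 with 27.6 ± 2.62. Timp1 varied widely between libraries and differs from neither neighbour in this order beyond the spread. Summed per kb, the Mmp genes went from 221 ± 10.1 CPM per kb at 3 h to 329 ± 20.8 at 48 h. The Timp genes went from 92.7 ± 6.3 to 192 ± 19, the Adamtsl genes from 9.71 ± 0.459 to 23.9 ± 2.08 and the Adamts genes from 113 ± 3.59 to 134 ± 4.19.

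**Figure D1:**
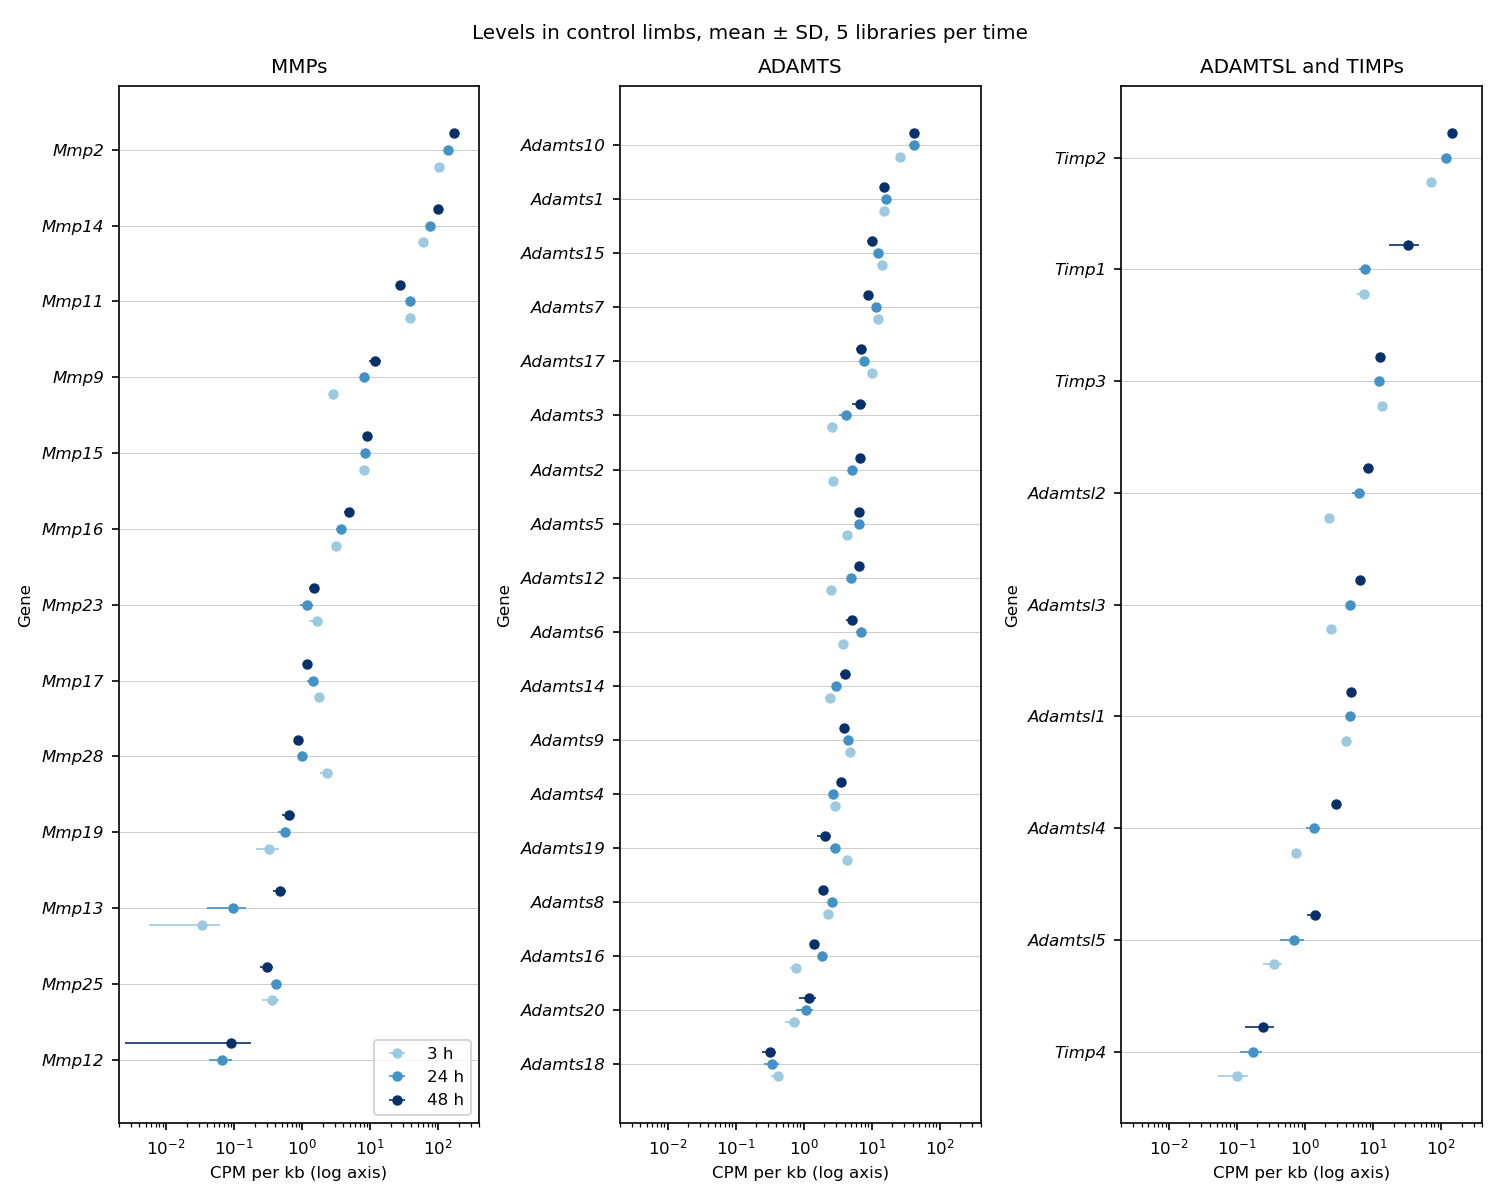
Level of each gene whose mean reached 1 CPM in any of the 9 groups, in CPM per kb on a log axis, in control limbs at 3, 24 and 48 h (points are means, bars SD, 5 libraries per time). Mmp2, Timp2 and Mmp14 lie at the top at all times, and Mmp13, Mmp9, Timp1 and the Adamtsl genes other than Adamtsl1 move far to the right with time; Mmp12 at 3 h is 0 and has no point.

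The first question was how the family moved in control limbs with time in culture. Between 3 and 24 h, 18 of 38 tested members rose and 3 fell, where 37.8% of all tested genes were called, 19.1% higher and 18.7% lower. Between 24 and 48 h, 15 of 39 rose and 5 fell, where 16.3% of all tested genes were called, 9.71% higher and 6.57% lower. From 3 to 48 h, 24 of 39 rose and 8 fell, where 50.9% of all tested genes were called, 25.6% higher and 25.4% lower. The median log2 change of the tested members from 3 to 48 h was 0.61, and that of all tested genes was -0.01. The 3 comparisons share control libraries. Mmp13, among the risers in both comparisons with 48 h, passed the read minimum only through the 48 h libraries. Its place in those counts gives no independent support.

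Among the proteases of ossifying cartilage and bone, Mmp13, the collagenase made by hypertrophic chondrocytes and osteoblasts, was almost silent at 3 h. Its control libraries held 0, 0.0537, 0.151, 0.181 and 0.0622 CPM at 3 h, 0.478, 0.279, 0.289, 0.118 and 0.113 CPM at 24 h, and 1.02, 1.48, 1.58, 1.33 and 0.959 CPM at 48 h. Every 48 h library was above every earlier one. The rise from 24 to 48 h was 2.27 ± 0.39 (edgeR adjusted p 8e-04). Mmp13 passed the read minimum only through the 48 h libraries, so it had to differ to be tested. This adjusted p gives no independent support. Mmp9, the gelatinase made by osteoclasts and other cells of the marrow front, stood at 9.58, 9.87, 11.7, 9.88 and 8.65 CPM at 3 h and at 31.6, 29.7, 30.6, 26.3 and 26.9 CPM at 24 h. The 2 groups do not overlap, and the change was 1.54 ± 0.09 (edgeR adjusted p 1.01e-09). It rose by a further 0.53 ± 0.11 by 48 h (edgeR adjusted p 0.00422).

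Mmp12, the elastase typical of macrophages, had no read in any control library at 3 h and 42 reads over the 5 control libraries at 24 h. With 3 reads per group as the floor, its 24 h level was at least 14.7-fold higher. Mmp2 rose by 0.75 ± 0.06 and Mmp14 by 0.75 ± 0.07 from 3 to 48 h (edgeR adjusted p 4.91e-09 and 3.19e-08). Mmp16, a further membrane-type protease, rose by 0.60 ± 0.11 (edgeR adjusted p 0.000124).

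The Mmp genes that fell were others. Mmp28, also called epilysin, fell from 9.15 ± 1.93 CPM at 3 h to 3.82 ± 0.427 at 24 h, a change of -1.26 ± 0.16 (edgeR adjusted p 6.64e-06). Mmp11, called stromelysin-3, held 107 ± 5.97 CPM at 3 h and 108 ± 3.95 at 24 h and fell to 76.7 ± 7.28 at 48 h (-0.50 ± 0.07 from 24 to 48 h, edgeR adjusted p 8.79e-05). Mmp17, whose product is held in the membrane by a lipid anchor, fell by 0.59 ± 0.13 from 3 to 48 h (edgeR adjusted p 0.000989).

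The procollagen N-proteinases, which trim fibrillar procollagens so that they can assemble, each passed the test. From 3 to 48 h, Adamts2 rose by 1.31 ± 0.08, Adamts3 by 1.36 ± 0.15 and Adamts14 by 0.74 ± 0.13 (edgeR adjusted p 1.37e-10, 4e-07 and 9.24e-05). Adamts2 held 23.9 to 28.5 CPM in the 3 h controls and 54.3 to 70.8 CPM at 48 h, so the groups are far apart. Adamts12, which cuts the cartilage protein COMP, rose by 1.36 ± 0.08 (edgeR adjusted p 2.02e-10). Adamts7, its close relative, fell by 0.49 ± 0.08 (edgeR adjusted p 3.24e-05), so the pair moved apart.

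Among genes whose products cut aggrecan or versican, Adamts4, Adamts5 and Adamts20 were higher and Adamts9 and Adamts15 lower at 48 than at 3 h. Adamts5, the main aggrecanase of mouse cartilage, rose from 46.4 ± 3.83 to 70.5 ± 7.09 CPM by 24 h (0.60 ± 0.07, edgeR adjusted p 5.79e-06) and then held 70.6 ± 5.88 CPM. Its neighbour Adamts1 stayed uncalled at 81.1 ± 4.06, 87.3 ± 7.69 and 81.1 ± 5.75 CPM at the 3 times. Adamts4, another aggrecanase, held 13.8 ± 1.09, 12.9 ± 1.04 and 16.8 ± 1.29 CPM at the 3 times and rose from 24 to 48 h by 0.38 ± 0.09 (edgeR adjusted p 0.0117). From 3 to 48 h it rose by 0.29 ± 0.10 (edgeR adjusted p 0.0177), a call lost without control 3 h replicate 1 or 3 (0.0549 and 0.0547) and with the Y-linked covariate (0.096). Adamts20, which cuts versican, rose by 0.73 ± 0.20 from 3 to 48 h (edgeR adjusted p 0.00557). Adamts9 and Adamts15, both versican proteases, fell from 3 to 48 h by 0.28 ± 0.08 and 0.46 ± 0.09 (edgeR adjusted p 0.00675 and 0.000287).

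Of the other Adamts genes, Adamts6 and Adamts16 had their highest mean at 24 h: Adamts6 held 30 ± 1.66, 54.5 ± 8.12 and 40.3 ± 7.86 CPM at the 3 times, and Adamts16 held 5.28 ± 0.889, 12.5 ± 1.25 and 9.83 ± 1.47 CPM. The later change of Adamts16 was not called (-0.35 ± 0.12, edgeR adjusted p 0.0649). The later fall of Adamts6 (-0.44 ± 0.13, edgeR adjusted p 0.0263) was lost, with an adjusted p of 0.0564 to 0.0722, without control 24 h replicate 1, 2 or 3 or control 48 h replicate 2, 4 or 5. Adamts19 fell at both steps, from 20.3 ± 1.63 to 13.3 ± 1.75 and 9.53 ± 2.2 CPM (-1.09 ± 0.14 in all, edgeR adjusted p 2.87e-06), and the call of its second step (-0.48 ± 0.15, adjusted p 0.0423) was lost without control 24 h replicate 1, 2 or 3 or control 48 h replicate 2, 3 or 5 (0.065 to 0.107).

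All 5 Adamtsl genes rose from 3 to 48 h. Adamtsl2, Adamtsl4 and Adamtsl5 rose by 1.92 ± 0.11, 1.95 ± 0.14 and 2.00 ± 0.23, Adamtsl3 by 1.44 ± 0.09 and Adamtsl1 by 0.26 ± 0.07 (edgeR adjusted p 8.66e-11, 2.4e-09, 1.26e-06, 3.86e-10 and 0.00313). Adamtsl2, whose human gene is mutated in geleophysic dysplasia, a disorder of short stature, held between 14.9 and 19.7 CPM in the 3 h libraries and between 56.4 and 83.5 CPM at 48 h, with no overlap.

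The inhibitors moved at different times. Timp2 rose early, from 280 ± 22.7 to 464 ± 27.3 CPM between 3 and 24 h (0.72 ± 0.06, edgeR adjusted p 5.11e-08). Timp1, the secreted inhibitor induced by many cytokines, held 6.45 ± 1.22 CPM at 3 h and 6.88 ± 1.35 at 24 h, and its 48 h libraries held 49.1, 36, 24.2, 16.8 and 17.6 CPM. All 48 h libraries were above all earlier ones but differed widely among themselves, and the change from 24 to 48 h was 2.06 ± 0.27 (edgeR adjusted p 7.2e-05). Timp3, which is bound to the matrix, held 109 ± 6.38, 101 ± 14.7 and 103 ± 13.2 CPM and was not called. Timp4 was the scarcest, with 0.583 ± 0.276 CPM at 3 h and 1.44 ± 0.659 at 48 h (1.31 ± 0.41, edgeR adjusted p 0.0125), and its call was lost without control 48 h replicate 5 (adjusted p 0.0577). Timp1, Timp3 and Timp4 each lie inside a synapsin gene on the opposite strand, and the sources used here do not say whether strand was used in counting.

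The second question was what BPAF did to these genes. At 5 µM and 24 h, 3 of 40 tested members rose and none fell, where 1.57% of all tested genes were called, 0.475% higher and 1.1% lower. These were Mmp9, Mmp12 and Mmp13, and the other 37 were not called. Mmp12 and Mmp13 passed the read minimum only through the 5 µM libraries and had to differ to be tested at all. Their place in this count and their adjusted p below therefore give no independent support. The medians of the tested members and of all tested genes were 0.03 and 0. On chromosome 9, 6 of the Mmp genes counted here lie on the plus strand within 309.4 kb, in this order: Mmp13 (chr9:7272514-7283331), Mmp12 (chr9:7344381-7369499), Mmp3, Mmp10, Mmp8 and Mmp27, in build mm10. Mmp9 lies alone at chr2:164940780-164955850.

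Start regions in this cluster are shown because Mmp13 and Mmp12 both rose. They are those of the 4 cluster genes whose window held the AP-1 motif described below. Mmp27 had a window without that motif. Sequences are from RefSeq, build GRCm38.p6, plus strand, 5′ to 3′, ending 1 base before the start annotated there. A window was found for 32 of the 47 genes, 34 windows in all, and 250 bases before the start were searched on both strands. The motifs were TGANTCA, the site of AP-1 (Fos and Jun proteins), TGTGGT or its complement ACCACA, a core of the site of Runx proteins, and TATAAA or its complement, the TATA motif. Capitals mark the motifs, which do not overlap each other.
Mmp13 chr9:7272264-7272513: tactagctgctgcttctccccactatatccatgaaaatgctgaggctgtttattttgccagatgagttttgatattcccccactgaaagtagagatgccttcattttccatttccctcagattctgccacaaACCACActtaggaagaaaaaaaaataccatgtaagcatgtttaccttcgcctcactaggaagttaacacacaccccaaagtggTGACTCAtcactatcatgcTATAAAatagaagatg
Mmp12 chr9:7347274-7347373: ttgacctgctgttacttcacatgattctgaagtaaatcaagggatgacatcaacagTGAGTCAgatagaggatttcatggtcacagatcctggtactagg
Mmp3 chr9:7445722-7445821: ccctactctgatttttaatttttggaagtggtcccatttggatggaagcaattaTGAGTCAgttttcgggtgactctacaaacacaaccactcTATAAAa
Mmp10 chr9:7502242-7502341: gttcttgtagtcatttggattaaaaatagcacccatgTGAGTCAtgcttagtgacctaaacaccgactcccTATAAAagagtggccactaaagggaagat
The AP-1 motif was in the windows of 4 members, all in this cluster: it began 35 bases before the start of Mmp13, 44 before that of Mmp12, 46 before that of Mmp3 and 63 before that of Mmp10. For Mmp12 this is the downstream of its annotated starts. Of all 32851 windows of this length, 6.75% held the motif. The Runx motif began 118 bases before the Mmp13 start and was in 4 member windows (Mmp13, Mmp14, Mmp23 and Mmp27) and in 14.045% of all windows. The TATA motif was in 6 member windows and in 12.4% of all windows. These matches describe letters and were tested for no binding.

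At 24 h, Mmp13 stood at 0.478, 0.279, 0.289, 0.118 and 0.113 CPM in control, at 0.241, 0.0598, 0.367, 0.362 and 0.0584 CPM with 1 µM and at 2.5, 1.06, 0.648, 0.66 and 0.965 CPM with 5 µM. Every 5 µM library was above every control and 1 µM library, and replicate 1 was far above the rest of its group. The values rest on 22 reads in control and 107 reads with 5 µM. The change was 2.18 ± 0.49 (edgeR adjusted p 0.0389). The adjusted p rose to between 0.0529 and 0.12 when any one of the 5 control libraries, or 5 µM replicate 1 or 2, was left out, and the change without 5 µM replicate 1 was 1.70.

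Mmp12 at 24 h stood at 0.597, 0.615, 0.52, 0.532 and 0.17 CPM in control, at 0.386, 0.897, 1.36, 0.775 and 0.409 CPM with 1 µM, and at 4.3, 4.12, 2.83, 0.66 and 2.89 CPM with 5 µM. The 5 µM libraries were all above control, replicate 4 only just, and that library lay within the 1 µM range. The change was 2.60 ± 0.44 (edgeR adjusted p 0.00697), and the reads numbered 42 in control and 275 with 5 µM. With limma-voom the adjusted p was 0.052. The annotation places Mmp1b, not analysed here, on the opposite strand across Mmp12, so reads of the pair cannot be told apart without strand.

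Mmp9 at 24 h stood at 31.6, 29.7, 30.6, 26.3 and 26.9 CPM in control, at 30.2, 34.6, 38.3, 28.5 and 26.3 CPM with 1 µM and at 44.2, 49, 42.4, 40.5 and 38.2 CPM with 5 µM. Control and 5 µM do not overlap, while the highest 1 µM library reached the lowest 5 µM library. The change was smaller than those of Mmp12 and Mmp13 on the log scale, 0.57 ± 0.08 (edgeR adjusted p 0.00262), and its call held without any single library. At 3 h the change of Mmp9 was -0.04 ± 0.12 (edgeR adjusted p 0.959), and the difference between the effects at 24 and 3 h was 0.62 ± 0.13 (edgeR adjusted p 0.0358). It was the 1 member of 41 called in that test of a difference, where 0.336% of all tested genes were called, 0.0627% higher and 0.274% lower. That call was lost without any 1 of 14 of the 20 libraries (adjusted p 0.0526 to 0.0893). The 6 that left it standing were control 3 h replicate 5, 5 µM 3 h replicates 4 and 5, control 24 h replicate 1 and 5 µM 24 h replicates 4 and 5.

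**Figure D2:**
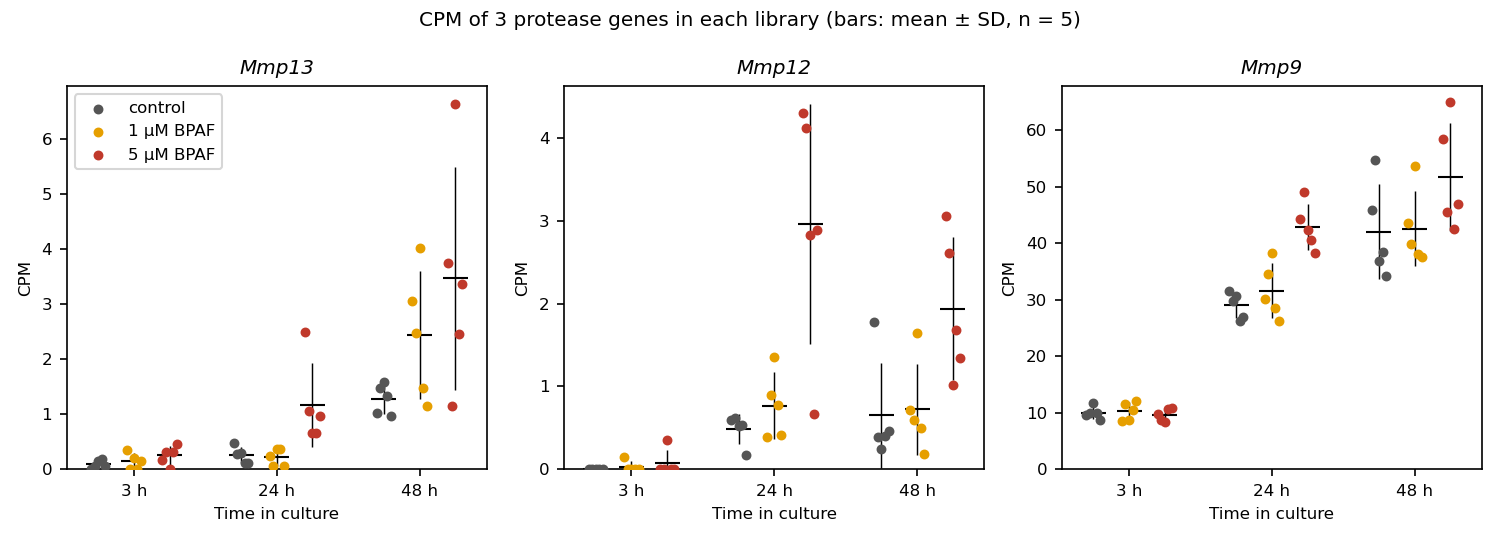
CPM of Mmp13, Mmp12 and Mmp9 in each library by time in culture, for control, 1 µM and 5 µM BPAF (points are libraries, horizontal bars means, vertical bars SD, n = 5). At 24 h all 5 µM points lie above all control points for the 3 genes, and at 48 h the groups overlap.

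Adamts14 came next at 24 h. Its libraries held 14.1, 16.5, 15.7, 15.9 and 16.6 CPM in control and 19.9, 20.7, 18.5, 19.7 and 19.1 CPM with 5 µM, which do not overlap, with a change of 0.32 ± 0.08 and an edgeR adjusted p of 0.069. The authors' deposited table calls it, with a log2 fold change of 0.33 and an adjusted p of 0.0197. None of the 4 Timp genes was called at 24 h, and Timp1 held 6.80 ± 0.725 CPM with 5 µM against 6.88 ± 1.35 in control. The proteases Mmp2 and Mmp14 held 474 ± 20.5 and 459 ± 29.4 CPM with 5 µM against 468 ± 36.4 and 458 ± 14.6 CPM in control, and neither was called.

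At 48 h with 5 µM, 3 of 40 tested members rose and 3 fell, where 7.16% of all tested genes were called, 2.74% higher and 4.42% lower. Mmp13, Adamts1 and Adamts14 rose, and Adamts5, Mmp15 and Mmp23 fell. Mmp13 held 1.02, 1.48, 1.58, 1.33 and 0.959 CPM in control, 3.06, 2.47, 4.03, 1.48 and 1.15 CPM with 1 µM and 3.75, 1.15, 6.64, 2.45 and 3.37 CPM with 5 µM. Of the 5 µM libraries, 4 were above all controls and replicate 2 lay among them, and the 1 µM libraries also spread from the control level upward. The change with 5 µM was 1.43 ± 0.36 (edgeR adjusted p 0.021), lost without control replicate 5 (0.059) or 5 µM replicate 3 (0.0733) and with limma-voom (0.074). The difference between the Mmp13 effects at 48 and 24 h was -0.74 ± 0.64 and was not called (edgeR adjusted p 1).

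Adamts5 and Adamts1, the aggrecan and versican proteases that neighbour each other on the minus strand of chromosome 16 with a gap of 53.1 kb, went opposite ways at 48 h. Adamts5 (chr16:85856173-85901828) held 67.1, 66.3, 79, 65.9 and 74.5 CPM in control, 74, 71, 77.7, 74.5 and 81 CPM with 1 µM and 56.3, 53, 56.2, 65.3 and 60.4 CPM with 5 µM. The 5 µM libraries were all below the others, by a narrow margin for replicate 4. The change was -0.30 ± 0.07 (edgeR adjusted p 0.0127), and its call held without any single library. Adamts1 (chr16:85793827-85803113) held 87.3, 73.5, 83.5, 84.4 and 76.7 CPM in control and 95.8, 87.4, 98.6, 101 and 103 CPM with 5 µM. The groups just fail to meet, since the lowest 5 µM library was level with the highest control. The change was 0.24 ± 0.06 (edgeR adjusted p 0.0327), lost without control replicate 2 or 5 or 5 µM replicate 1, 3, 4 or 5 (adjusted p 0.0578 to 0.0908).

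Adamts14, the procollagen N-proteinase, held 21.2, 25.2, 16.5, 23 and 20.1 CPM in control and 28, 26.9, 25.7, 28.8 and 27.4 CPM with 5 µM at 48 h. As at 24 h, all 5 µM libraries were above all controls. The change was 0.35 ± 0.10 (edgeR adjusted p 0.0482), lost without control replicate 1, 3 or 5 or 5 µM replicate 1, 2, 4 or 5 (adjusted p 0.0741 to 0.104). The related Adamts2 and Adamts3 were not called, with -0.10 ± 0.07 and 0.17 ± 0.13.

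Mmp15, a membrane-type protease, held 40.5, 52, 54.4, 49.5 and 49.1 CPM in control and 32.2, 40.5, 42.7, 39.1 and 44.1 CPM with 5 µM. Control replicate 1 lies among the 5 µM libraries and the other 4 controls lie above them. The change was -0.33 ± 0.09 (edgeR adjusted p 0.0362), lost without any 1 of 8 libraries, all but control replicate 1 and 5 µM replicate 5 (adjusted p 0.0505 to 0.1). Mmp23, a small membrane-held family member, held 3.81, 2.95, 4, 3.72 and 3 CPM in control and 2.25, 1.82, 2.36, 1.68 and 1.66 CPM with 5 µM, with no overlap. The change was -0.86 ± 0.21 (edgeR adjusted p 0.0159), lost without 5 µM replicate 5 (0.0528).

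The next 3 members by p missed the threshold. Timp3 held 117, 87, 116, 95.9 and 99.8 CPM in control and 126, 115, 174, 125 and 126 CPM with 5 µM, a change of 0.34 ± 0.10 (edgeR adjusted p 0.0528), and passed without control replicate 1 or 3 or 5 µM replicate 2 (0.0332 to 0.0388). Mmp28 held 3.12 to 4 CPM in control and 4.13 to 5.94 CPM with 5 µM (0.56 ± 0.17, edgeR adjusted p 0.056). Mmp12 held 1.78, 0.385, 0.242, 0.398 and 0.459 CPM in control and 3.06, 2.61, 1.02, 1.68 and 1.34 CPM with 5 µM, so that control replicate 1 alone reached into the 5 µM range. Its change was 1.51 ± 0.48 (edgeR adjusted p 0.0682), and without that library it was 2.33 (adjusted p 0.00202). Mmp12 passed the read minimum here only through the 5 µM libraries, so these edgeR values give no independent support. The authors' deposited table calls all 3, with adjusted p of 0.0164, 0.0308 and 0.0261.

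Among the other inhibitors at 48 h, Timp1 spread from 16.8 to 49.1 CPM in control, from 17.4 to 59 CPM with 1 µM and from 16.3 to 52.5 CPM with 5 µM. The 3 groups cover the same range, and the change with 5 µM was 0.19 ± 0.32 (edgeR adjusted p 0.819). Timp2 held 570 ± 51.8 CPM in control and 632 ± 38.6 with 5 µM, and was not called (edgeR adjusted p 0.309).

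**Figure D3:**
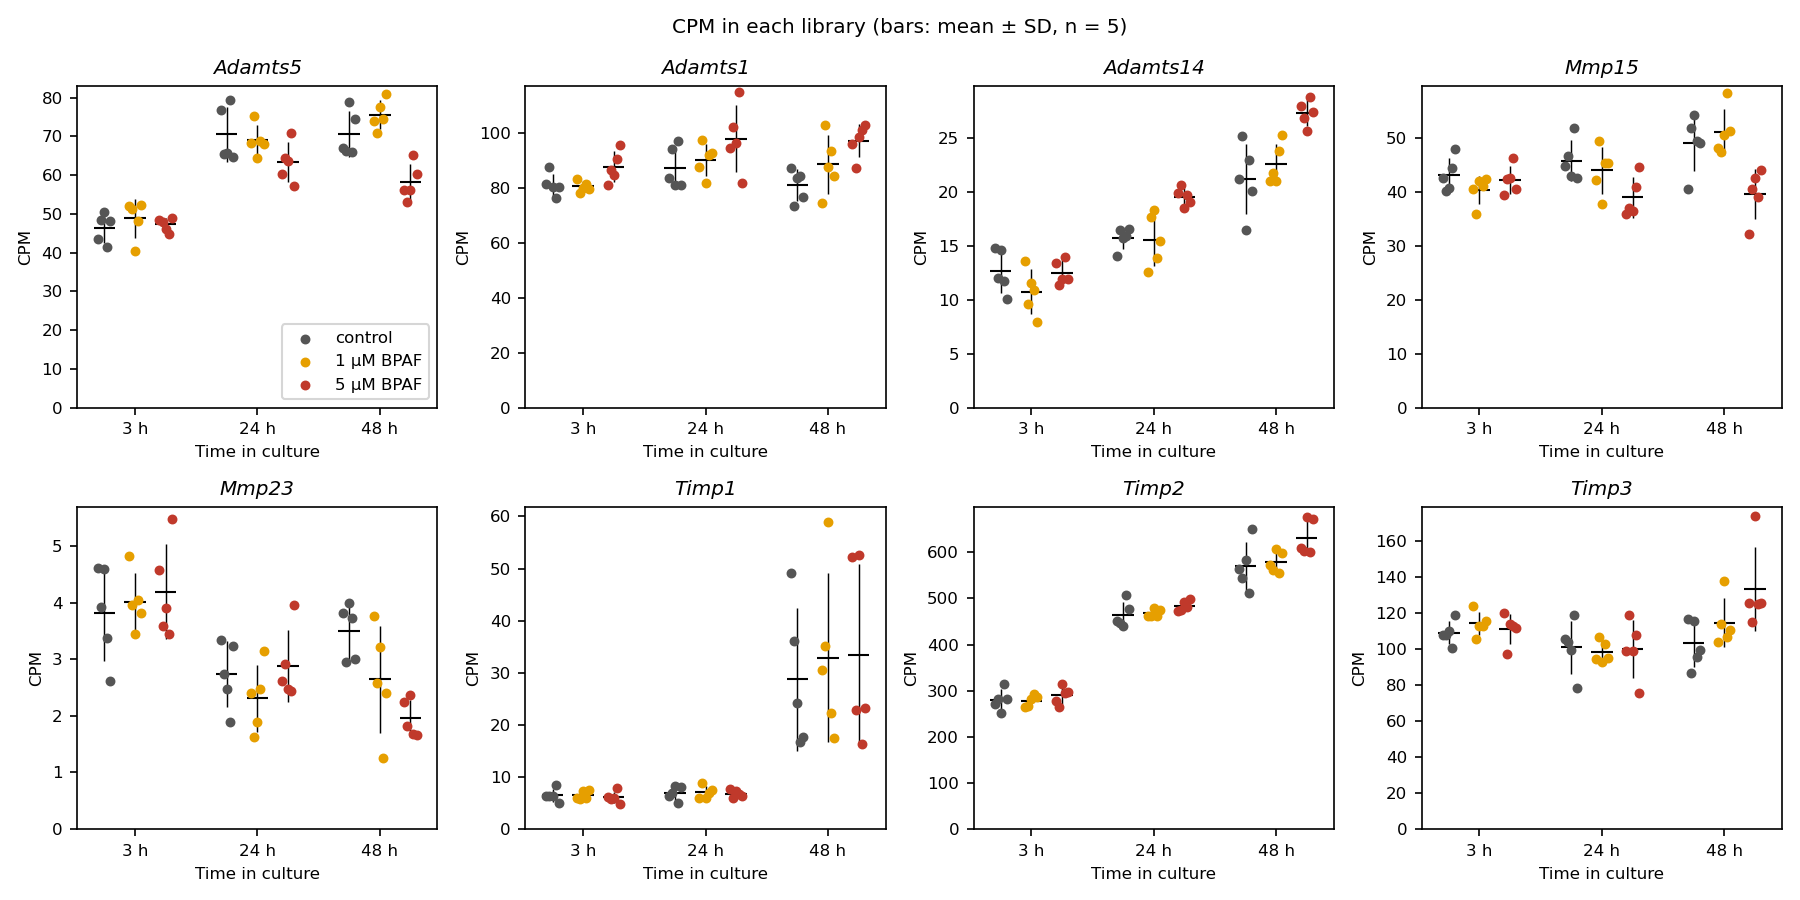
CPM in each library by time in culture for Adamts5, Adamts1, Adamts14, Mmp15, Mmp23, Timp1, Timp2 and Timp3, in control, 1 µM and 5 µM BPAF (points are libraries, horizontal bars means, vertical bars SD, n = 5). At 48 h the 5 µM points of Adamts5 and Mmp23 lie below all controls, those of Adamts14 above them, and Timp1 spreads over the same range at each dose.

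Further along the chromosome 9 cluster, levels were too low for the test. Mmp8, the collagenase of neutrophils, held 0.305, 0.642, 0.424, 0.332 and 0.375 CPM in the 48 h controls, 0.547, 0, 0.252, 0.495 and 0.241 CPM with 1 µM and 0, 0.0608, 0, 0.129 and 0 CPM with 5 µM. These are 37, 27 and 3 reads, and the 5 µM libraries were all below control, the opposite of Mmp13 and Mmp12. The control level was 11.4 times the 5 µM level, with an exact binomial 95% interval of 3.6 to 57.6 that covers counting error only. Without the filter on low counts, the edgeR change was -3.29 with an adjusted p of 0.0301, whereas the authors' deposited table gives -3.52 with an adjusted p of 1. The 9 neutrophil markers summed to 0.915 to 2.79 CPM in these controls and 1.66 to 3.61 CPM with 5 µM, so they were not lower beside Mmp8. Mmp8 also had fewer reads with 5 µM earlier, 2 against 13 in control at 3 h and 4 against 11 at 24 h. With 1 µM it had 21 reads at 24 h. Without the filter, 5 µM against control was called at neither time (edgeR adjusted p 0.645 and 0.709). Mmp10, a stromelysin, had no read in the 24 h controls and 16 reads with 5 µM (0.109, 0, 0.177, 0 and 0.531 CPM), which is at least 5.12-fold higher against a floor of 3 reads per group, with 2 of the 5 µM libraries at 0. With 1 µM it had 8 reads at 24 h (0, 0, 0.21, 0.207 and 0 CPM), within the 5 µM range. Without the filter, Mmp10 was called neither for 5 µM against control (edgeR adjusted p 0.267) nor for 5 against 1 µM (0.825). At 48 h it had 1 read in control and 6 with 5 µM.

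**Figure D4:**
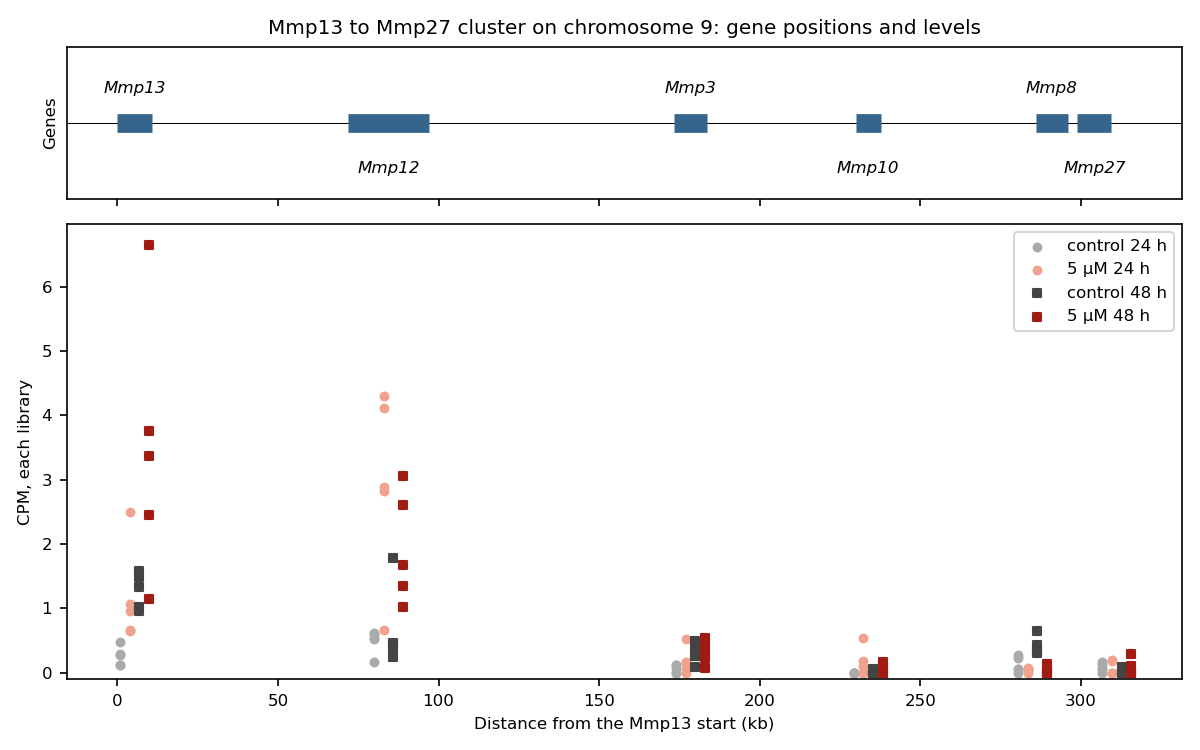
Top, positions of the 6 counted Mmp genes of the chromosome 9 cluster as distance in kb from the Mmp13 start; bottom, CPM in each library for control and 5 µM BPAF at 24 and 48 h, drawn at each gene's position with a small sideways offset. Mmp13 and Mmp12 at the left carry nearly all of the signal, and the Mmp8 points of 5 µM at 48 h lie below those of control.

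At 3 h with 5 µM, edgeR called 0 of 39 tested members, where 0.18% of all tested genes were called, 0.114% higher and 0.0661% lower. At an unadjusted p under 0.05 there were 6, and DESeq2 called 1. That 1 was Adamts18, which held 3.5, 3.65, 4.9, 5.42 and 3.79 CPM in control, 5.23, 5.35, 7.41, 8.31 and 5.98 CPM with 1 µM and 6.88, 5.82, 8.2, 7.44 and 6.26 CPM with 5 µM. All 5 µM libraries were above all controls, and 1 µM overlapped with both. The change with 5 µM was 0.71 ± 0.16 (edgeR adjusted p 0.0803), and without control replicate 4 it was 0.80 (adjusted p 0.04). The authors' deposited table, made with DESeq2, also calls Adamts18, with a log2 fold change of 0.71 and an adjusted p of 0.00988. At 24 and 48 h Adamts18 held 2.01 to 4.59 and 1.72 to 4.44 CPM with 5 µM, within reach of the controls. Mmp13 and Mmp12 had too few reads to be tested at 3 h. Mmp13 had 8 reads in control and 23 with 5 µM. The ratio was 2.8, with an exact binomial 95% interval of 1.21 to 7.24 for counting error only. Mmp12 had reads with 5 µM in replicate 3 alone. Without the filter on low counts, Mmp13 and Mmp12 changed by 1.43 and 3.54. Neither was called (edgeR adjusted p 0.645 for both). Their 5 µM effects were not called as different between 3 and 24 h.

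At 1 µM, edgeR called 0 of 39 tested members at each of 3, 24 and 48 h, where 0%, 0.00608% and 0% of all tested genes were called. The counts at an unadjusted p under 0.05 were 2, 0 and 1, and DESeq2 and limma-voom also called 0. At 3 h, Adamts18 changed by 0.61 ± 0.18 (edgeR adjusted p 1). At 48 h the 1 was Mmp13, with 2.44 ± 1.17 CPM against 1.27 ± 0.274 in control, a change of 0.94 ± 0.34 (edgeR adjusted p 0.998). The tests of 1 µM and 5 µM share their control libraries.

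The doses were also compared directly. At 24 h, 3 of 40 tested members were higher with 5 µM than with 1 µM, where 1.19% of all tested genes were called, 0.242% higher and 0.946% lower: Mmp13 by 2.36 ± 0.53, Mmp12 by 1.95 ± 0.44 and Mmp9 by 0.44 ± 0.10 (edgeR adjusted p 0.0379, 0.0394 and 0.0477). Here too Mmp13 and Mmp12 passed the read minimum only through the 5 µM libraries, so their calls give no independent support. The Mmp12 call was lost with limma-voom (adjusted p 0.136) and in 1 fit over all groups (0.0711). The calls were lost, with adjusted p up to 0.148, without 1 µM replicate 1, 2, 4 or 5 or 5 µM replicate 1 or 2 for all 3 genes, without 1 µM replicate 3 for Mmp13, without 5 µM replicate 3 for Mmp12 and Mmp9, and without 5 µM replicate 4 for Mmp9. At 48 h, Mmp2 was higher and Adamts5 and Mmp15 were lower with 5 µM, 3 of 40 tested, where 5.96% of all tested genes were called, 2.19% higher and 3.77% lower. Adamts5 differed by -0.40 ± 0.06 and Mmp15 by -0.39 ± 0.08 (edgeR adjusted p 0.000618 and 0.0091), and both calls held without any single library. Mmp2 held 535, 498, 597, 519 and 563 CPM with 1 µM and 619, 607, 710, 587 and 674 CPM with 5 µM, so that 5 µM replicate 4 alone lies below the highest 1 µM library. The difference was 0.22 ± 0.06 (edgeR adjusted p 0.0439). It was lost without 1 µM replicate 1, 2, 4 or 5 or 5 µM replicate 1, 3 or 5 (adjusted p 0.0608 to 0.115). Mmp13 at 48 h was not called between the doses (0.49 ± 0.39, edgeR adjusted p 0.591). Between 24 and 48 h, the 5 µM effect was called as different by edgeR in 0 of 40 tested members, where 0.0693% of all tested genes were called, 0.00578% higher and 0.0635% lower. At an unadjusted p under 0.05 there were 3, and DESeq2 and limma-voom called 0.

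**Figure D5:**
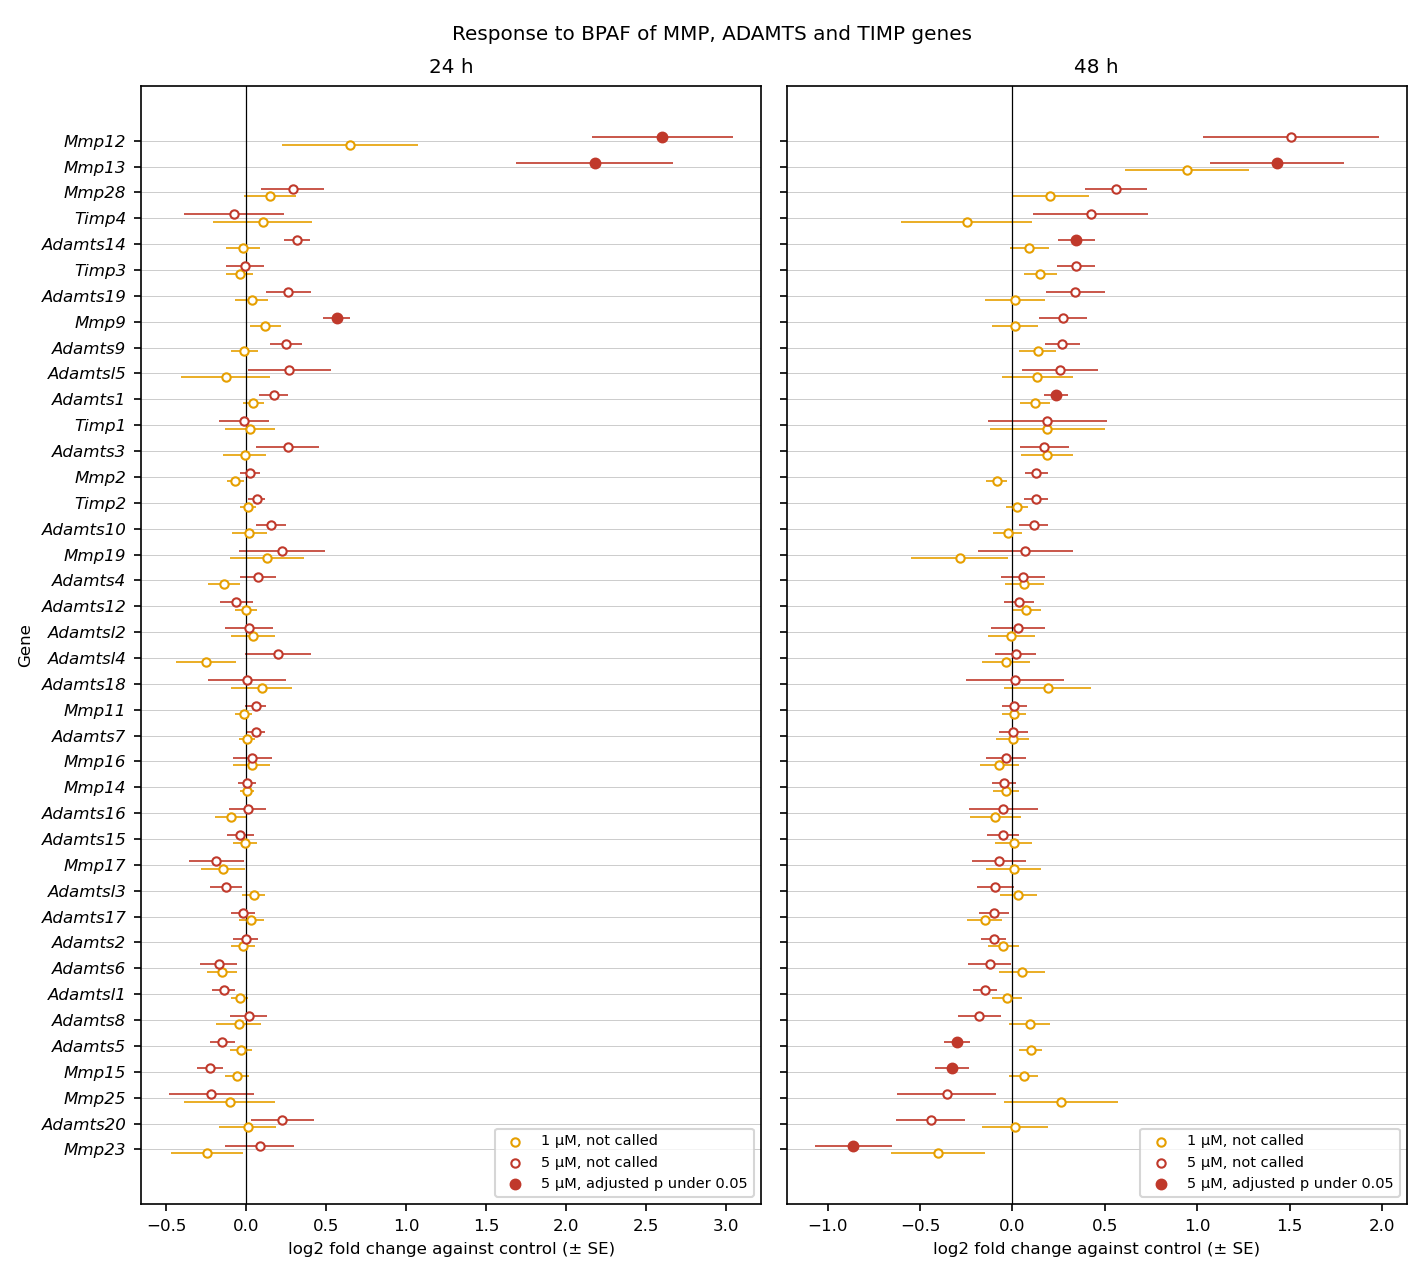
Log2 fold change against control (points, bars SE) of each member tested at 48 h with 5 µM, for 1 µM and 5 µM BPAF at 24 h (left) and 48 h (right); filled points have an edgeR adjusted p under 0.05. Mmp12 and Mmp13 stand to the right at 5 µM, Adamts5, Mmp15 and Mmp23 fall at 48 h, and all 1 µM points are open.

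Genes that act with the family were followed in 3 lists, which share genes with the cell type marker lists (Col10a1, Ibsp, Ctsk, Sp7 and Runx2 among them). Of 43 activators, inhibitors and other matrix proteases, 42 were tested from 3 to 48 h in control and 31 rose and 4 fell, with a median of 0.55, where 25.6% of all tested genes rose and 25.4% fell with a median of -0.01. They included Thbs2 (2.59 ± 0.08), whose product clears MMP2, the lysosomal protease Ctsd (1.63 ± 0.07), the secreted protease Htra1 (2.14 ± 0.11) and Adam33 (1.77 ± 0.10), with edgeR adjusted p of 7.5e-14, 7.51e-12, 5.61e-11 and 6.96e-11. With 5 µM at 24 h, 2 of 40 rose, where 0.475% of all tested genes did, Ctsl (0.27 ± 0.06), a cysteine protease, and Spock1 (0.57 ± 0.13), a proteoglycan, with edgeR adjusted p of 0.0324 and 0.0458. At 48 h, 3 of 42 rose and 3 fell, where 2.74% and 4.42% of all tested genes did. Serpine2, an inhibitor of serine proteases, rose by 0.65 ± 0.07, Ctsl by 0.35 ± 0.06 and the membrane protease Adam8 by 0.48 ± 0.13 (edgeR adjusted p 5.9e-06, 0.00167 and 0.0293). Adam19, another membrane protease, changed by -0.52 ± 0.08, Ctsk, the collagenase of osteoclasts, by -0.48 ± 0.13 and Ctss, a cathepsin of macrophages, by -0.45 ± 0.13 (edgeR adjusted p 0.000348, 0.0252 and 0.0499).

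Of 34 matrix substrates, 28 rose and 3 fell from 3 to 48 h in control, where 25.6% and 25.4% of all tested genes did, with a median of 1.43 against -0.01. They included Ibsp (9.73 ± 0.19), a bone sialoprotein, and Comp (3.95 ± 0.08), a cartilage protein (edgeR adjusted p 2.97e-16 for both). With 5 µM none rose, 2 of 34 fell at 24 h and 3 of 34 at 48 h, where 1.1% and 4.42% of all tested genes fell. At 24 h Col10a1, the collagen of hypertrophic cartilage, and Ibsp fell by 1.64 ± 0.20 and 2.00 ± 0.30 (edgeR adjusted p 0.000855 and 0.00295), and at 48 h by 1.17 ± 0.34 and 1.34 ± 0.23 (0.0423 and 0.000946), joined by Vwf, the vessel protein that ADAMTS13 cuts (-0.83 ± 0.24, edgeR adjusted p 0.0456). Of 24 genes known to act on Mmp13, 22 were tested from 3 to 48 h in control and 12 rose and 3 fell, where 25.6% and 25.4% of all tested genes did. Among those that rose were Sp7 (2.01 ± 0.09), Mef2c (1.65 ± 0.08), Etv5 (1.17 ± 0.06) and Runx2 (1.00 ± 0.09), all transcription factors (edgeR adjusted p 3.55e-12, 1.1e-11, 2.09e-11 and 7.51e-08). With 5 µM, 1 of 22 fell at 24 h, Mef2c (-0.46 ± 0.09, edgeR adjusted p 0.0165). At 48 h 2 of 22 fell and 2 rose, where 4.42% and 2.74% of all tested genes did: Mef2c and Etv5 fell by 0.69 ± 0.08 and 0.38 ± 0.06, and Cebpb and Atf3, both stress-responsive factors, rose by 0.50 ± 0.14 and 0.53 ± 0.15 (edgeR adjusted p 2.51e-05, 0.000499, 0.0349 and 0.0382).

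Cell type markers are given beside these changes, to be read against the 1.1% of all tested genes that fell and 0.475% that rose with 5 µM at 24 h and the 4.42% and 2.74% at 48 h. Hypertrophic chondrocytes, a source of MMP13, were followed by 6 markers, whose summed level with 5 µM was 253 to 303 CPM at 24 h against 360 to 444 CPM in control, and 606 to 1100 against 1160 to 1540 CPM at 48 h. Of the 6, Col10a1 and Ibsp fell at both times and the other 4 were not called, and the list's median changes were -0.10 at 24 h and 0.10 at 48 h. Osteoblasts, also a source of MMP13, were followed by 8 markers. Of 6 tested at 24 h none was called, and of 7 tested at 48 h 1 fell, with medians of -0.29 and -0.02. Their sum with 5 µM was 97.5 to 155 against 128 to 158 CPM in control at 24 h. At 48 h it was 184 to 227 against 177 to 216 CPM. Macrophages, a source of MMP12, were followed by 16 markers, of which 3 fell at 24 h and 8 fell and 1 rose (Gpnmb) at 48 h. Their sum was 148 to 230 against 232 to 276 CPM at 24 h and 288 to 372 against 350 to 474 CPM at 48 h. The macrophage medians were -0.41 and -0.58.

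Osteoclasts, a source of MMP9, were followed by 10 markers, of which 6 were tested and none was called at 24 h, with sums of 291 to 312 CPM against 284 to 305 CPM. At 48 h Nfatc1 rose and Ctsk fell, and the sums were 310 to 383 CPM with 5 µM against 270 to 335 CPM in control. Of those too scarce to test, Calcr, the calcitonin receptor, stood at 0.314 ± 0.239 CPM in the 24 h controls and 0.197 ± 0.145 with 5 µM, and Dcstamp, which acts in osteoclast fusion, was listed at 0 in all 24 h controls. Of the neutrophil markers, whose sum was at most 3.61 CPM in control and 5 µM libraries, Retnlg was listed at 0 in the 48 h controls and Elane with 5 µM at 48 h. Of 11 skeletal muscle markers, 5 fell at 24 h and 10 at 48 h with 5 µM, and their sum was 1830 to 2190 against 2620 to 3160 CPM at 24 h and 1870 to 2240 against 3380 to 5460 CPM at 48 h. In control limbs from 3 to 48 h, all 6 hypertrophic and 13 of 15 tested macrophage markers rose beside the family, where 25.6% of all tested genes did. The part of these cell types in the changes of the proteases was not tested.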

How the data were processed

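Read counts per gene were deposited by the authors in 9 tables of 10 libraries each, and each control library recurs in several of them with the same counts. Per the submitters' processing notes, CASAVA 1.8, STAR 2.5, HTSeq 0.6.1 and DESeq2 were used with build mm10; the strand setting is not given in the sources used here. The authors' deposited log2 fold changes and adjusted p-values were read from the same tables per the file headers. The 9 tables were joined into 1 matrix of 45 libraries, with the 11.7% of gene and library pairs absent from a library's tables read as 0. Each comparison was fitted on its own libraries with edgeR 4.0.16 (R 4.3.3, limma 3.58.1) after TMM scaling and a filter on low counts (minimum count 10, minimum total 15). The quasi-likelihood test was adjusted by Benjamini-Hochberg over all genes tested and called at 0.05, and the code was tested on simulated data. SE was taken as the log2 fold change over the square root of F. CPM were TMM-scaled, per kb by the deposited gene length. Intervals are exact at 95% and cover counting error only, as do the floors of 3 reads.

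Members and lists were chosen with earlier results of these data known. Named with values were Mmp13, Mmp12, Mmp9, Mmp2, Mmp14 and Timp1 to Timp4, up to 12 called members per comparison by p, and members called in none or below the filter. Genes that narrowly missed a call, and genes of the 3 lists, were picked after their values were seen. Alternatives were DESeq2 1.42.0, limma-voom, other scaling, no filter, 1 fit over all groups, a block for replicate number, a Y-linked covariate and leaving out each library. Positions of 46 of 47 members are those of GENCODE M21.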

Additional observations from a re-analysis of the deposited data

Results flagged for a closer look

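Of 125 combinations of a member and a group checked for a library far from the other 4, over 14 members, 8 had one (a gap of more than 0.71 of the group's range), and chance flags about 1 in 20 groups. Mmp12 accounts for 4 of them. At 3 h it held 0.152 CPM in 1 µM replicate 1 and 0.354 CPM in 5 µM replicate 3, where the other libraries of each group held 0. Control 24 h replicate 5 held 0.17 CPM of Mmp12, below the 0.52 to 0.615 CPM of the others, and control 48 h replicate 1 held 1.78 CPM, above their 0.242 to 0.459 CPM. Mmp13 stood at 2.5 CPM in 5 µM 24 h replicate 1 against 0.648 to 1.06 CPM in the others. Among the inhibitors, Timp3 stood at 174 CPM in 5 µM 48 h replicate 3 against 115 to 126 CPM. Timp4 stood at 0.591 CPM in 1 µM 48 h replicate 2 against 1.2 to 1.45 CPM, and at 1.42 CPM in 5 µM 48 h replicate 4 against 2.07 to 2.23 CPM.

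The effect of 5 µM BPAF on Mmp9 differed between 24 h and 3 h by 0.62 ± 0.13 (edgeR adjusted p 0.0358), the 1 member so called. The call was fragile: it was lost in 14 of 20 fits that left out 1 library (adjusted p up to 0.0893). It was also lost with limma-voom, in 1 fit over all groups and with the Y-linked covariate.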

How the results depend on the processing

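Of 170 member results with 3085 alternative values, 2921 stayed on the same side of the threshold, 143 lost the call and 21 gained it. No called result changed sign, while some uncalled results did. Among these was Mmp12 for the 5 µM effect at 24 h minus that at 3 h, which ran from -1.25 to 2.606 as single libraries were left out. With 5 µM at 3 h, DESeq2 and the replicate block each called 1 member (Adamts18) in place of 0. With 5 µM at 48 h the replicate block called 10 in place of 6, the same 6 with Timp3 (adjusted p 0.00204), Mmp12 (0.00685), Adamts9 and Adamts20. Mmp12 passed the read minimum there only through the 5 µM libraries, so its call gives no independent support. Between 5 and 1 µM at 48 h, DESeq2 called 5, the replicate block 7 and the block by library code numbers 7, in place of 3. For the 5 µM effect at 24 h minus that at 3 h, limma-voom, 1 fit over all groups and the Y-linked covariate each called 0 in place of 1. The cause was not tested. Replicate numbers were not shown to pair the libraries, since in no comparison did all 5 same-numbered pairs correlate above 0.1. As a hint from the data and not the design, for 5 µM against control 4 of 5 pairs did so at both 24 h (the other at 0.095) and 48 h (the other at 0.002), and 4 of 5 correlated best with their own number. The same 4 of 5 best matches were found for 5 µM and 1 µM against control at 3 h. They were also found at 24 h for 1 µM against control and for 5 against 1 µM. At 48 h, 1 µM against control had 2 and 5 against 1 µM had 3. The control time comparisons had 1 or 2. Leaving out each library gave 18 to 22 calls for control 24 against 3 h, 17 to 20 for 48 against 24 h and 31 to 33 for 48 against 3 h. With 5 µM it gave 0 to 1 at 3 h, 2 to 4 at 24 h and 2 to 8 at 48 h. Between doses it gave 0 to 4 at 24 h and 2 to 4 at 48 h, for the 24 minus 3 h effect 0 to 1, and 0 throughout for 1 µM and for the 48 minus 24 h effect. The all-gene counts behind the background shares moved too: 15 to 45 at 3 h (30 with every library) and 109 to 498 at 24 h (258) with 5 µM, 95 to 553 between doses at 24 h (196), 30 to 109 for the 24 minus 3 h effect (59) and 2 to 17 for the 48 minus 24 h effect (12). For 24 h, the doses at 24 h and the 24 minus 3 h effect, the lowest count came without 5 µM 24 h replicate 1 and the highest without 5 µM 24 h replicate 5. Depth limits the scarce genes: the 24 h controls held 22 reads of Mmp13 and 42 of Mmp12, and the 6 members tested nowhere had 41 to 128 reads each over all libraries.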
